A study of Homo sapiens with 12 samples.

Results

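The response to UV radiation of SW13 cells labelled as without BRG1 was taken from 6 of the 12 arrays of the series. These are the 3 arrays labelled as cells without BRG1 and UV treated and the 3 labelled as cells without BRG1 and mock treated, chosen by their labels alone, and the response was described across all genes, falls as well as rises. SW13 is a human adrenal cortical carcinoma line that makes no detectable BRG1, the ATPase encoded by SMARCA4 that drives SWI/SNF chromatin remodeling complexes, which use ATP to move nucleosomes. The cells of both groups carry the empty plasmid pREP7 and are called SW13+vector, and the other 6 arrays hold SW13+BRG1 cells, in which pREP7 carries BRG1, under the same treatments. The UV-treated cells received 10 J/m2 and the mock-treated cells none, warm medium was returned to both, and total RNA was prepared after 6 h for Affymetrix U133 Plus 2.0 arrays. The study set out to learn how BRG1 shapes the transcripts that UV induces, and these 6 arrays hold the response that cells give without it. The paper describes a single stable line with the vector, so the 3 arrays of a group, numbered as experiments 1 to 3, repeat the same line. The limma p-values and standard errors measure the spread between such repeats, pooled over the 4 groups of the series. A wide spread among the SW13+BRG1 arrays therefore widens the error of a gene here as well.

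UV light joins neighbouring pyrimidines in DNA, and RNA polymerase II stops when it meets such a lesion on the strand it transcribes. Transcription-coupled nucleotide excision repair then removes the lesion, and a long transcription unit is more likely than a short unit to hold a lesion. Transcripts that are degraded quickly follow a loss of synthesis sooner than stable transcripts do. Irradiated cells also activate MAP kinases, which drive the AP-1 genes such as FOS and JUN, and, where it is functional, the tumor suppressor p53.

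SMARCA4 mRNA gave a signal in these cells although they are labelled as without BRG1. Its brightest probe set had signals of 314, 383 and 920 on mock-treated arrays 1 to 3 and 423, 451 and 686 on UV-treated arrays 1 to 3, and the change was not called. On the arrays labelled SW13+BRG1 the same probe set had lower means, 213 without and 230 with UV. Of the 7 tested SMARCA4 probe sets, 5 had a higher mock-treated mean in SW13+vector and 2 in SW13+BRG1 cells, so the SMARCA4 signals did not mark out the line labelled as carrying BRG1, and both lines are named by their labels. An mRNA signal does not measure the protein, and which part of the mRNA each probe set and the plasmid hold was not checked. For the protein, the paper reports a Western blot that shows BRG1 in SW13+BRG1 cells, and states that UV did not change it. Of the 7 probe sets, 1 was called lower after UV (log2 change -1.08). SMARCA2, which encodes BRM, the other ATPase of the complex, had signals of 8.68 to 23.4 on the 6 arrays, near the array medians of 21.3 to 25.3. Most adrenal cortex markers examined had low signals as well. Of 7 such genes on the array, 5 did not pass the filter on low signals and reached at most 10.4 to 40.9 on any of the 6 arrays. The other 2 were tested and not called, with log2 changes of -0.23 and -0.12. Of these, CYP17A1, a steroid hydroxylase, had mean signals of 6.73 without and 6.19 with UV. It passed the filter through the SW13+BRG1 arrays alone. Among markers of other cell types, none of those tested was called after UV.

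Pairs of arrays with the same treatment had correlations of log2 signals of 0.894 to 0.942 (6 pairs), and pairs of a UV-treated with a mock-treated array 0.864 to 0.915 (9 pairs), so the ranges overlap. The 75th percentile of the signals was 107 to 109 on the mock-treated and 93.3 to 96.6 on the UV-treated arrays, and transcripts spiked in at hybridization had mean log2 signals of 9.97 to 10.3 and 10.3 to 10.5. Neither measure overlapped between the groups (exact permutation test, two-sided p = 0.1 for each, the smallest that 3 against 3 arrays allow). Mock-treated array 3 stood apart in the ratio of 3' to 5' signal of GAPDH, a sign of RNA or label quality, at 1.64 against 0.976 to 1.25 on the other 5 arrays. The part of these measures in the results was not tested. Every array was scaled to the same mean, so a change is relative to the bulk of the RNA, and fewer cells cannot be told apart from less RNA per cell.

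By 6 h after UV, transcripts called lower outnumbered those called higher. Over all tested genes, called or not, 7191 had a change above 0 and 6643 below 0, with a median of 0.03. A gene was called where limma gave an adjusted p under 0.05 and the change passed 2-fold. By this rule 577 of 13834 genes were lower (4.17%) and 93 were higher (0.672%), each gene being represented by its brightest probe set. At the level of probe sets 1175 were lower (3.6%) and 217 higher (0.665%) of 32622. The 3 UV-treated and 3 mock-treated signals did not overlap for 575 of the 577 lower and 87 of the 93 higher genes, where such separation was also seen for 17.2% of all tested genes in the lower and 15.0% in the higher direction. The median change was -1.32 on the log2 scale for the lower and 1.71 for the higher genes, and 70 genes fell and 31 rose by more than 4-fold. The genes that rose were dimmer. In 64.5% of them, against 21.3% of those that fell, the brighter group had a mean signal under 102, the 75th percentile used for naming genes. Without UV-treated array 1 or 2 the higher genes numbered 59 or 57, and with the experiment number as a block they numbered 145 and the higher probe sets 347, so the count of rises depends more on the arrays and the model than the count of falls does (498 to 583 without any 1 array). Scaled to the hybridization controls, which moves the median change of all genes from 0.03 to -0.23, the share of higher genes among the calls went from 13.9% to 3.95%.

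**Figure D1:**
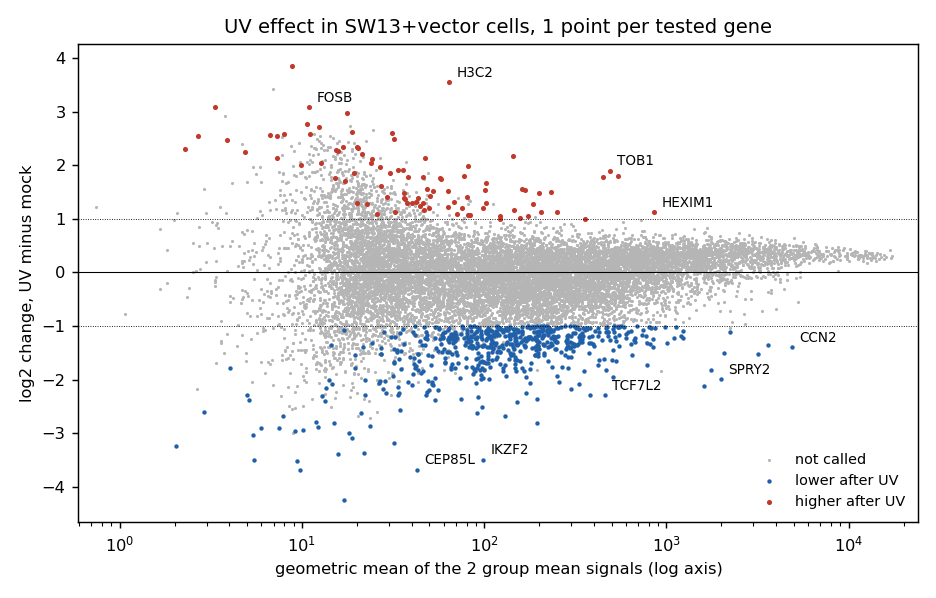
Log2 change after UV (vertical axis) against the geometric mean of the mock and UV mean signals (horizontal log axis) for 13828 genes of SW13+vector cells, with genes of the Y chromosome and XIST left out. Dotted lines mark a 2-fold change, blue points the genes called lower and red points those called higher. Most genes called higher lie at low signals, and genes called lower reach signals over 1000.

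IKZF2, a zinc finger transcription factor of the Ikaros family, had signals of 295, 325 and 374 on mock-treated arrays 1 to 3 and 34.3, 22.9 and 31.7 on UV-treated arrays 1 to 3. This is a log2 change of -3.50 (standard error 0.20, limma adjusted p = 3.35e-06). The highest UV-treated signal was far below the lowest mock-treated signal. CEP85L, a centrosomal protein, went from 112, 106 and 140 to 1.67, 26.6 and 17.5, a larger change of -3.68 with a wider error (0.81). Without UV-treated array 1, which gave the lowest of these signals, its change was -2.45. SEMA3D, a secreted semaphorin that guides axons, was steady without UV at 516, 521 and 510 and dropped to 86.3, 76.2 and 59.4 (log2 change -2.82, standard error 0.30). RFX7, a winged-helix transcription factor, dropped from a mean of 223 ± 12.6 (SD) to 37.2 ± 10.9, and both of its tested probe sets were called. The other genes with the largest falls among bright transcripts with separated groups were LRP6, PTCH1, the receptor of Hedgehog ligands, ARID4B, HYCC2, ZNF680, CSPP1, EIF2AK3 and TCF7L2, with log2 changes of -2.68 to -2.29. All 12 kept their call when any 1 of the 6 arrays was left out. Of SEMA3D, PTCH1 and CSPP1 a single probe set was called, of 2, 3 and 5 tested, and their calls were lost when the probe sets of a gene were averaged (-1.46, -1.03 and -0.98).

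**Figure D2:**
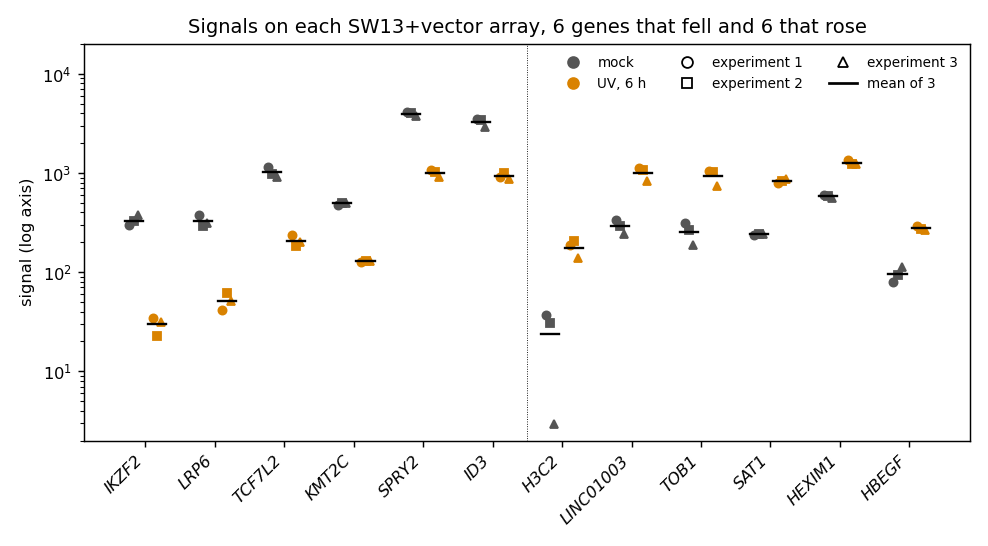
Signals (log axis) of 12 genes on each mock-treated (grey) and UV-treated (orange) SW13+vector array, with the shape of the point giving the experiment and black bars the mean of 3. The 6 genes on the left fell and the 6 on the right rose, and in each of them the groups do not overlap.

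The genes that fell were long. The span of a gene is its length in the genome from the start to the end of its annotation, introns included, which RefSeq gives for 13816 of the tested genes. Genes called lower had a median span of 99.0 kb, those not called 26.8 kb and those called higher 9.80 kb. Of the lower genes 287 of 576 (49.8%) spanned over 100 kb, and of the higher genes 63 of 91 (69.2%) under 20 kb. Span was not used to call any gene, and the counts below were computed for all genes with a span.

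Among 1659 genes under 5 kb, 0.784% were lower and 1.93% higher after UV, and the median change was 0.30 on the log2 scale. From 5 to 20 kb 0.965% were lower, and from 20 to 50 kb 2.49%. From 50 to 100 kb 6.77% were lower. Over 100 kb, among 2412 genes, 11.9% were lower and 0.539% higher, and the median change was -0.27. The share of lower genes thus rose from class to class, and the median change fell. When any 1 array was left out the lower share stayed at 0.482% to 0.844% under 5 kb and at 10.8% to 12.1% over 100 kb. The gradient was present on each UV-treated array set against the mean of the mock-treated arrays, with median changes under 5 kb of 0.32, 0.25 and 0.40 and over 100 kb of -0.22, -0.25 and -0.32.

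Across the 13816 genes the change after UV and the log10 of the span had a Pearson correlation of -0.287 and a Spearman correlation of -0.330, given as a description, since genes on the same arrays are not independent. Scaling to the hybridization controls shifts all genes alike, so it cannot change these correlations or the difference between short and long genes. It moves the medians, to 0.04 under 5 kb, -0.07 from 5 to 20 kb and -0.53 over 100 kb, so the sign of the change of short genes depends on the scaling. Genes differ in brightness as well as in span. Genes were therefore split into 4 classes of equal size by mean signal. From the dimmest to the brightest, the lower share over 100 kb was 3.14%, 17.5%, 17.9% and 5.84%, and that under 5 kb 0.791%, 0.286%, 1.88% and 0.487%. In each of the 4 classes the share of lower genes was higher over 100 kb than under 5 kb. The gradient was also found in SW13+BRG1 cells, where the median change went from 0.34 under 5 kb to -0.21 over 100 kb. Among the 1031 long noncoding RNA genes it was weaker (Spearman correlation -0.133).

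**Figure D3:**
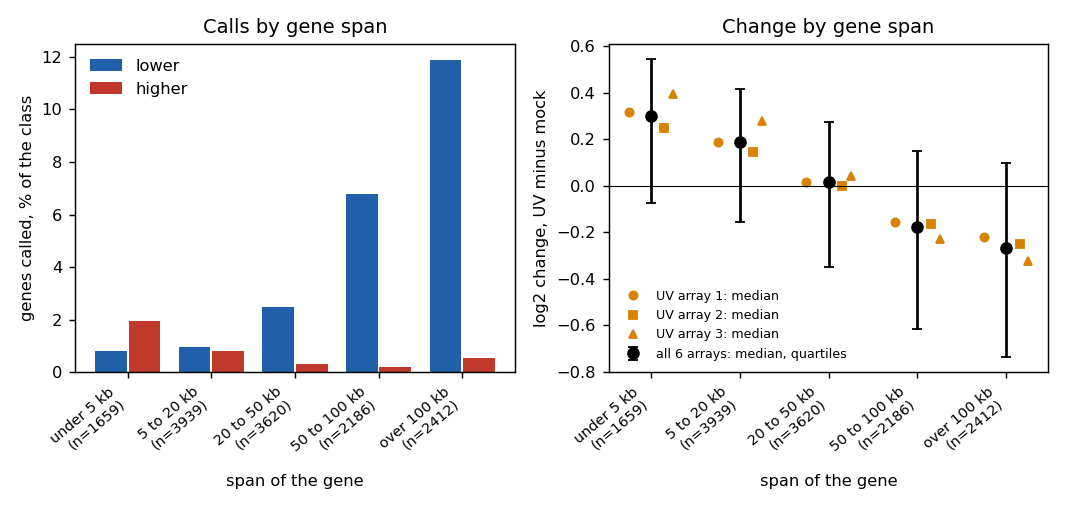
Left, the share of genes called lower (blue) or higher (red) after UV in 5 classes of gene span, with the number of genes in each. Right, the median log2 change of each class over all 6 arrays with its quartiles (black), and the median on each UV-treated array against the mean of the mock-treated arrays (orange). The lower share rises from 0.784% to 11.9% and the median falls from 0.30 to -0.27.

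Several genes of chromatin enzymes were called lower. Of 36 histone acetyltransferases, histone methyltransferases and CHD remodelers tested, 9 were lower (25.0%, against 4.17% of all tested genes) and 0 higher, and the median change was -0.58, with 33 of 36 below 0. KMT2C, a methyltransferase of histone H3 lysine 4 at enhancers, had signals of 478, 499 and 503 on the mock-treated and 128, 131 and 128 on the UV-treated arrays. The groups of this probe set lie far apart (log2 change -1.94, standard error 0.22, limma adjusted p = 0.00017). KMT2C had 5 tested probe sets, with a call on 2, and averaged over all 5 the change was -0.86 and the call was lost. SETD2, which trimethylates histone H3 lysine 36 behind elongating RNA polymerase II, fell by 1.97, from a mean of 195 ± 42.2 (SD) to 49.8 ± 11.1. The remodelers CHD1 and CHD7 fell by 1.79 and 1.76, and all of these kept their call without any 1 array. The other members called lower were EP300, CREBBP, KAT6B, KMT2E and CHD9, with changes of -1.35 to -1.09. Among these the CHD9 call was lost without mock-treated array 3 (-0.95). Of the acetyltransferases, KAT5, KAT2A and KAT8 were not called, at -0.08, -0.05 and 0.38. The median span of the 36 genes was 76.0 kb, against 28.1 kb over all tested genes.

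Of 26 genes of SWI/SNF subunits tested, 3 were lower (11.5%, against 4.17% of all tested genes) and 0 higher. The median change over the list was -0.06, which turns to 0.04 with quantile normalization. ARID1A, the DNA-binding subunit of the BAF form of the complex, fell the most, from 1457, 1424 and 1378 to 467, 394 and 423 (log2 change -1.73, standard error 0.18, limma adjusted p = 0.00013). BICRAL, a subunit of the noncanonical form, fell from 183, 140 and 169 to 76.4, 74.1 and 65.1. BCL7A fell by 1.04, a call lost without mock-treated array 2 (-0.96). The core subunits SMARCB1, SMARCC1 and SMARCE1 had changes of 0.07, -0.07 and 0.28 and were not called.

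Wnt signaling starts when a Wnt ligand binds a Frizzled receptor and LRP5 or LRP6, which stops the complex of AXIN, APC and GSK3B from marking beta-catenin for degradation and lets beta-catenin act with TCF factors. Of 30 receptors and transducers tested, 6 were lower (20%, against 4.17% of all tested genes) and 0 higher, with a median of -0.29. LRP6 had signals of 379, 295 and 311 without and 41.2, 61.5 and 51.6 with UV. TCF7L2, a TCF factor, fell on 5 of its 7 tested probe sets, the brightest going from 1143, 987 and 910 to 237, 184 and 199. In both genes the groups were well apart (log2 changes -2.68 and -2.29, standard errors 0.25 and 0.19). On the destruction complex side GSK3B fell by 1.51 and APC from a mean of 225 to 85.1, the latter call lost without mock-treated array 1 (-1.39) or 2 (-1.45). FZD2, a Frizzled receptor, and BTRC, the ubiquitin ligase subunit that binds beta-catenin, fell by 1.14 and 1.01. The FZD2 call was lost without mock-treated array 3 (-0.96), and the BTRC call without UV-treated array 1 (-0.98) or 3 (-0.92) or mock-treated array 2 (-0.98). CTNNB1, which encodes beta-catenin, went from a mean of 767 to 828 and was not called. Genes on both sides of the pathway were thus among the lower.

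In the TGF-beta and BMP pathway 24 of 25 tested members had changes below 0, with a median of -0.65. Of the 25, 3 were called lower (12%, against 4.17% of all tested genes). The lower members were SMURF1, a ubiquitin ligase that targets SMAD proteins, at -1.82, the BMP type I receptor ACVR1 at -1.49 and the SMAD repressor SKIL at -1.05. A single probe set was called of the 5 tested for SMURF1 and of the 4 for SKIL, and with the probe sets averaged both calls were lost, at -0.52 and -0.32. Without UV-treated array 3 the list held 5 lower members, and the call of SKIL was lost without mock-treated array 1 (-0.93). Most changes were of modest size and not called: SMAD4 went from a mean of 531 to 376 and SMAD5 from 420 to 312. TGFB1, a ligand, was the single member above 0, at 0.31. ACVR1 kept its call without any 1 array, with signals of 218, 180 and 187 before and 70.3, 90.9 and 51.6 after UV.

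ZNF zinc finger genes, most of which encode repressors of transcription that bind DNA through arrays of zinc fingers, were called lower in a minority. Of 387 tested, 30 were lower (7.75%, against 4.17% of all tested genes) and 1 higher (0.258%, against 0.672%). A change below 0 was found in 293, and the median was -0.36. ZNF680 fell from 401, 380 and 532 to 70.8, 124 and 67.9. At lower signals ZNF347, ZNF691 and ZNF696 went from means of 73.8, 79.0 and 64.6 to 21.8, 25.6 and 18.8. Of these 3, ZNF696 alone kept its call without any 1 array, and the changes of ZNF347 and ZNF691, -2.10 and -1.88, were -1.36 without UV-treated array 3 and -1.18 without UV-treated array 1. The higher member was ZNF264, from a mean of 57.9 to 116, a call lost without any 1 UV-treated array or mock-treated array 3 (0.74 to 1.11). Their median span was 23.5 kb, shorter than the 28.1 kb of all tested genes. So a lower share above that of all tested genes was found here in a family that is not of long span.

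Short genes also fell, and some were among the brightest transcripts of these cells. In all 51 genes under 20 kb were called lower, and in 29 of these the groups were apart with a bright mock-treated mean. This group was formed after the values were seen. SPRY2, an inhibitor of receptor tyrosine kinase signaling to ERK that spans 5.15 kb, had signals of 4144, 3983 and 3782 without and 1064, 1017 and 913 with UV. Its change of -1.99 had a standard error of 0.13 (limma adjusted p = 8.39e-06). ID3, an inhibitor of helix-loop-helix transcription factors, went from 3529, 3437 and 2926 to 917, 991 and 875. SLC38A2, a transporter of neutral amino acids, fell on all 3 of its probe sets, by 1.51 on the brightest, and DKK1, a secreted Wnt antagonist, from 3674, 3706 and 3077 to 1453, 1342 and 937. MYC, the growth-promoting transcription factor, fell from 1210, 1315 and 1326 to 553, 501 and 478 (log2 change -1.33, standard error 0.20, limma adjusted p = 0.00119). None of these 5 lost its call without any 1 array. CCN2, a matricellular protein, fell from 7493, 7397 and 8918 to 2895, 2807 and 3352, with the call lost without UV-treated array 1 (-1.37) or 2 (-1.34). MCL1, a short-lived guardian against apoptosis, fell by 1.02, a call lost without UV-treated array 1 (-0.96) or 2 (-0.98) or mock-treated array 3 (-0.77).

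Several feedback inhibitors of the ERK pathway fell. They belong to a list of EGF ligands and MAP kinase regulators, with 31 genes tested. Of these, 7 were lower (22.6%, against 4.17% of all tested genes) and 1 was higher (3.23%, against 0.672%). ERK induces the Sprouty, SPRED and DUSP genes, whose products then restrain the pathway. Besides SPRY2, SPRY1 fell from 1115, 974 and 889 to 278, 295 and 201, on both of its probe sets. SPRED1 fell from 403, 361 and 299 to 102, 120 and 49.4, and SPRED2 by 1.84. DUSP6, the phosphatase of ERK, fell from a mean of 5815 to 2258 (log2 change -1.36, standard error 0.17). The kinases MAP3K5, which acts upstream of p38 and JNK, and MAP3K4 fell by 1.84 and 1.31. The other feedback genes did not all follow. SPRY4, DUSP4, ETV4 and ETV5 had changes of 0.02, 0.67, 0.19 and -0.01 and were not called, and DUSP1, which many stresses induce, went from a mean of 318 to 393. SPRED2, MAP3K4 and DUSP6 are named here after their values were seen.

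The higher member of that list was HBEGF, a growth factor released from the cell surface that activates the EGF receptor. It rose from 79.5, 92.7 and 114 to 291, 272 and 265 (log2 change 1.55, standard error 0.22, limma adjusted p = 0.000785). Each UV-treated signal was above each mock-treated signal, although a single one of its 3 probe sets was called. EGFR itself was near background, with a mean of 24.7 without and 23.5 with UV. The ligand EREG went from a mean of 427 to 202 and was not called.

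Few bright transcripts were called higher. TOB1, an antiproliferative protein that brings the CCR4-NOT deadenylase to mRNAs, had signals of 313, 264 and 188 without and 1051, 1031 and 737 with UV, and both of its probe sets rose (log2 change 1.89, standard error 0.24, limma adjusted p = 0.000425). SAT1, which acetylates spermidine and spermine, rose on all 3 of its probe sets, its brightest from 239, 240 and 241 to 794, 829 and 864. HEXIM1, which holds the elongation kinase P-TEFb inactive together with 7SK RNA, rose from 601, 585 and 553 to 1345, 1224 and 1230 (log2 change 1.13, standard error 0.12, limma adjusted p = 0.00013). In each of the 3 the lowest UV-treated signal was above the highest mock-treated signal, and the calls held without any 1 array. That of HEXIM1 was lost when scaled to the hybridization controls and when its 3 probe sets, 2 of them called, were averaged (0.81). LOC646903, a dim noncoding transcript, went from 31.8, 26.7 and 37.1 to 98.6, 102 and 119. THAP2 and MELTF rose by 1.54 each, CCDC13 by 1.66 and the noncoding transcript HNRNPD-DT by 1.52, with a call on a single probe set in each, and the calls of CCDC13, MELTF and THAP2 were lost when the probe sets of a gene were averaged.

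Other genes of these pathways moved the other way or were not called. In the elongation, mRNA decay and polyamine lists below, 7.41%, 18.2% and 7.14% of tested genes were lower, against 4.17% of all tested genes. The higher shares were 3.70%, 4.55% and 7.14%, against 0.672%, and came from 1 gene in each list. Among 27 genes of RNA polymerase II pausing and elongation, CDK12, the kinase that supports transcription of long genes, fell from 339, 396 and 381 to 143, 178 and 153, and the elongation factor ELL2 fell by 2.02 at low signals, a call lost without mock-treated array 1 (-1.92), 2 (-2.04) or 3 (-2.10), and with a change of -1.05 without UV-treated array 3. HEXIM1 was the single member that rose. Among 22 mRNA decay regulators, TOB1 rose while the CCR4-NOT subunits CNOT4, CNOT2 and CNOT6L fell, by 1.27, 1.16 and 1.12, and the decapping factor DCP1A by 1.26, a call lost without UV-treated array 1 (-1.06) or 2 (-1.14). CNOT2 went from 486, 467 and 553 to 247, 219 and 205. Among 14 genes of polyamine metabolism SAT1 rose, and MAT2A, which makes S-adenosylmethionine, fell from 1295, 1295 and 2279 to 624, 638 and 621.

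Replication-dependent histone genes are intronless genes whose mRNAs end in a stem-loop in place of a poly(A) tail. They were the list with the largest share of rises among those examined, 4 of 31 tested (12.9%, against 0.672% of all tested genes). Their median span was 0.496 kb, and of all genes under 5 kb 1.93% were higher. In 28 of 31 the change was above 0, with a median of 0.53. The paper does not state how array targets were primed, and which forms of these mRNAs were measured was not checked. H3C2 had signals of 36.7, 30.8 and 2.95 without and 186, 206 and 139 with UV (log2 change 3.55, standard error 0.71, limma adjusted p = 0.00541). H2AC17 went from 53.7, 51.5 and 22 to 180, 147 and 144, and H2BC21 from 81.1, 55.4 and 61.3 to 181, 143 and 155. The UV-treated signals were above all mock-treated signals in these 3 genes, and mock-treated array 3, with the high GAPDH ratio, gave the lowest signal of H3C2 and H2AC17. H3C8 rose by 1.80, but its groups overlapped and the call was lost without UV-treated array 1 (1.61), 2 (1.76) or 3 (2.03) or mock-treated array 2 (1.89) or 3 (0.99). Without mock-treated array 3 the calls of H3C2, H2AC17 and H2BC21 held, with changes of 2.38, 1.57 and 1.24. Histone genes of a kind are near-identical, and probe sets such as that of H3C2 can bind the mRNA of several copies, so the copy is uncertain. Brighter members were not called, such as H2BC12, from a mean of 3484 to 4997, and H2BC5, from 777 to 1072.

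The immediate early and AP-1 genes are short and induced within minutes by growth factors and stress. Of 31 tested, 2 were higher (6.45%, against 0.672% of all tested genes) and 4 lower (12.9%, against 4.17%). FOS rose from 146, 83.1 and 135 to 268, 329 and 263 (log2 change 1.27, standard error 0.25, limma adjusted p = 0.0047). FOSB was near background without UV, at 4.15, 3.99 and 2.67, and reached 20.2, 24.6 and 54.5. No fold is given from such signals, and the call was lost without UV-treated array 3. Partners of FOS were not called, and JUN went from a mean of 164 to 293 and ATF3 from 37.3 to 71.4, both under 2-fold. EGR1, a zinc finger factor of the same class, was among the brightest at 6422 and went to 4341, not called. Besides ID3, CCN2 and MYC, KLF6 fell by 1.10, a call lost without mock-treated array 3 (-0.85). So at 6 h members of the class had moved in both directions.

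The 250 bases before the annotated start of the 4 genes of the histone and AP-1 lists with the largest rises are shown from RefSeq (GRCh38.p14), since these genes were called higher, with letters searched on both strands in capitals. The words searched were TGACGTCA, a CRE element, TGANTCA, an AP-1 element, CCAAT and TATAAA.
H3C2 (chr6:26032100-26032349, minus strand): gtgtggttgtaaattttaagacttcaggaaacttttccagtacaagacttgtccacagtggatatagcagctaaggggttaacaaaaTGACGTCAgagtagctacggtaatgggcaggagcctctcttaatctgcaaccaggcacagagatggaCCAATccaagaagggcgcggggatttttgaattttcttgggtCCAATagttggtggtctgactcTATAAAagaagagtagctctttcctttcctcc
FOSB (chr19:45467746-45467995, plus strand): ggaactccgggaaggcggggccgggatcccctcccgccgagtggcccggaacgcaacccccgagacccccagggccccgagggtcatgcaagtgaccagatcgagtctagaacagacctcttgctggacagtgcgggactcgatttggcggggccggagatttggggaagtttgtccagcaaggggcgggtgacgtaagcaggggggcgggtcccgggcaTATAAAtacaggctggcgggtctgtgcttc
H2AC17 (chr6:27893186-27893435, minus strand): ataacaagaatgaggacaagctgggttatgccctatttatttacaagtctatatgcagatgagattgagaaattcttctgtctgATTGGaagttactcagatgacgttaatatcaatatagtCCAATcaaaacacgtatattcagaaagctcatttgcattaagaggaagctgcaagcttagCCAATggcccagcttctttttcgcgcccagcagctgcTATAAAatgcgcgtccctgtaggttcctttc
H3C8 (chr6:26271414-26271663, minus strand): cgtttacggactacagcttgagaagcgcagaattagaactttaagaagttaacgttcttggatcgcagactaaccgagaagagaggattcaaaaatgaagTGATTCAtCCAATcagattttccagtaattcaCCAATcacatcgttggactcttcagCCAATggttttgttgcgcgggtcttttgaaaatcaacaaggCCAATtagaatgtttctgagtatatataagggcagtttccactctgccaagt
Of the 6 members of both lists called higher, which add H2BC21 and FOS, 5 held TATAAA, which 11.1% of 27305 promoters of this length hold, and 4 held CCAAT, against 33.0%. TGACGTCA was found in H3C2 and in 1.77% of all, and TGANTCA in H3C8 and in 6.6% of all. The match in H3C8 is TGATTCA, with T at N, so it is not the AP-1 element. Members of the lists that were not called were not searched, so these shares cannot set the called members apart from the rest of their lists. A match to letters is a description and not a site of binding.

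Targets of p53 did not rise as a class. Of 26 tested, 15 had a change above 0 and 11 below, with a median of 0.08. Of these targets 1 was called higher (3.85%, against 0.672% of all tested genes) and 2 lower (7.69%, against 4.17%). The higher target was CDKN1A, the cell cycle inhibitor p21, at 157, 122 and 85.9 after 47.6, 47.7 and 78.5. The call of CDKN1A (log2 change 1.07) was lost without UV-treated array 1 (0.86) or 2 (1.05) or mock-treated array 1 (0.95) or 2 (0.95). The lower targets were PPM1D, a phosphatase that shuts off p53 signaling, at -1.10, and PLK2, whose call at -1.11 was lost without UV-treated array 2 (-0.60) or any 1 mock-treated array (-1.01 to -1.20). MDM2, the ubiquitin ligase of p53, went from a mean of 310 to 181 and was not called. CCNG1 went from 1441 to 2122, and DDB2 and XPC, damage recognition factors of repair, from 131 to 152 and from 145 to 166, none of them called.

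Few repair genes were called. Of 45 nucleotide excision repair genes tested, 0 were called in limma in either direction, with 12 at an unadjusted p under 0.05, and the median change was 0.14, which turns to -0.12 when scaled to the hybridization controls. The 2 lowest were CDK7, a kinase of the repair and transcription factor TFIIH, from a mean of 511 to 273, and POLD3, a subunit of DNA polymerase delta, from 388 to 220. Without mock-treated array 3, 1 gene of the list was lower. Among 40 genes of the damage checkpoint and break repair 5% were lower, near the 4.17% of all tested genes. REV3L, the catalytic subunit of the translesion polymerase zeta, fell from 263, 230 and 296 to 85.0, 150 and 112. Its partner REV1 fell by 1.02, a call lost without UV-treated array 3 (-0.78) or mock-treated array 1 (-0.94). The kinases ATM and ATR had changes of -0.64 and -0.40 and CHEK1 of -0.02, not called.

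Genes of cytosolic ribosomal proteins and of the respiratory chain were not called. Of 59 cytosolic ribosomal protein genes 0 were called in limma (49 at an unadjusted p under 0.05) and 57 had a change above 0, with a median of 0.33. Of 74 respiratory chain genes 0 were called (64 at an unadjusted p under 0.05) and 71 were above 0, with a median of 0.41. These transcripts are abundant and long-lived, and their medians went to 0.07 and 0.14 when scaled to the hybridization controls and to 0.03 and 0.17 with quantile normalization. GAPDH went from a mean of 10072 ± 710 (SD) to 12486 ± 973 and ACTB from 10968 to 13026, not called. In the unfolded protein and integrated stress response 3 of 24 tested genes were lower (12.5%, against 4.17% of all tested genes). EIF2AK3, the kinase PERK of the endoplasmic reticulum, fell from 234, 194 and 193 to 46.5, 45.2 and 33.1, and PPP1R15B, the constitutive partner of the phosphatase that reverses its mark, by 1.18. CHAC1, an enzyme that degrades glutathione, went from a mean of 71.7 to 20.4, a call lost without UV-treated array 1 (-1.84) or 3 (-1.69) or mock-treated array 1 (-1.94) or 2 (-2.08). ATF4 and HSPA5 were at -0.03 and 0.08.

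Cell cycle and apoptosis genes were called in small numbers. Lower shares were 2.63% for G1/S, 5.41% for G2/M and 7.41% for the BCL2 and caspase list. They were 8.33% for HECT ligases and 5% for NF-kB genes, against 4.17% of all tested genes. Higher shares were 3.70% for the BCL2 and caspase list and 5% for NF-kB genes, against 0.672%, with 0 in the rest. Of 38 genes of the G1/S transition and replication, E2F3, a transcription factor of S phase entry, was the single lower member, from 408, 384 and 613 to 182, 188 and 163, and without UV-treated array 1 there were 2. Of 37 genes of G2/M and mitosis, AURKA, the mitotic kinase Aurora A, fell from 1089, 1050 and 1154 to 486, 437 and 552 on the brightest of its probe sets. KIF23, a kinesin of cytokinesis, fell by 1.04, a call lost without UV-treated array 2 (-1.07) or 3 (-0.92) or mock-treated array 2 (-1.04) or 3 (-0.94). Of 27 genes of the BCL2 family, caspases and their inhibitors, 1 was higher and 2, XIAP and MCL1, were lower. The higher was CASP8, an initiator caspase, whose signals were below the array medians and overlapped, with a highest of 2.11 without and a lowest of 1.56 with UV. It passed the filter through the SW13+BRG1 arrays alone, with means there of 266 without and 186 with UV. Its call was lost without 4 of the 6 arrays in turn. XIAP, which blocks caspases, fell from 1319, 1057 and 723 to 481, 504 and 300, on 1 of its 7 probe sets. The groups did not overlap for AURKA, E2F3 or XIAP, and their calls held without any 1 array. Of 24 HECT ubiquitin ligases, 2 were lower, SMURF1 and HECTD4, the latter from a mean of 118 to 61.5. Of 20 genes of the NF-kB pathway and its targets, the deubiquitinase TNFAIP3 went from a mean of 47.4 to 22.3 and the chemokine CCL2, below the array medians, from 2.20 to 10.7. CCL2 also passed the filter through the SW13+BRG1 arrays alone, with means there of 900 and 880. The call of HECTD4 was lost without 4 and that of TNFAIP3 without 5 of the 6 arrays in turn.

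**Figure D4:**
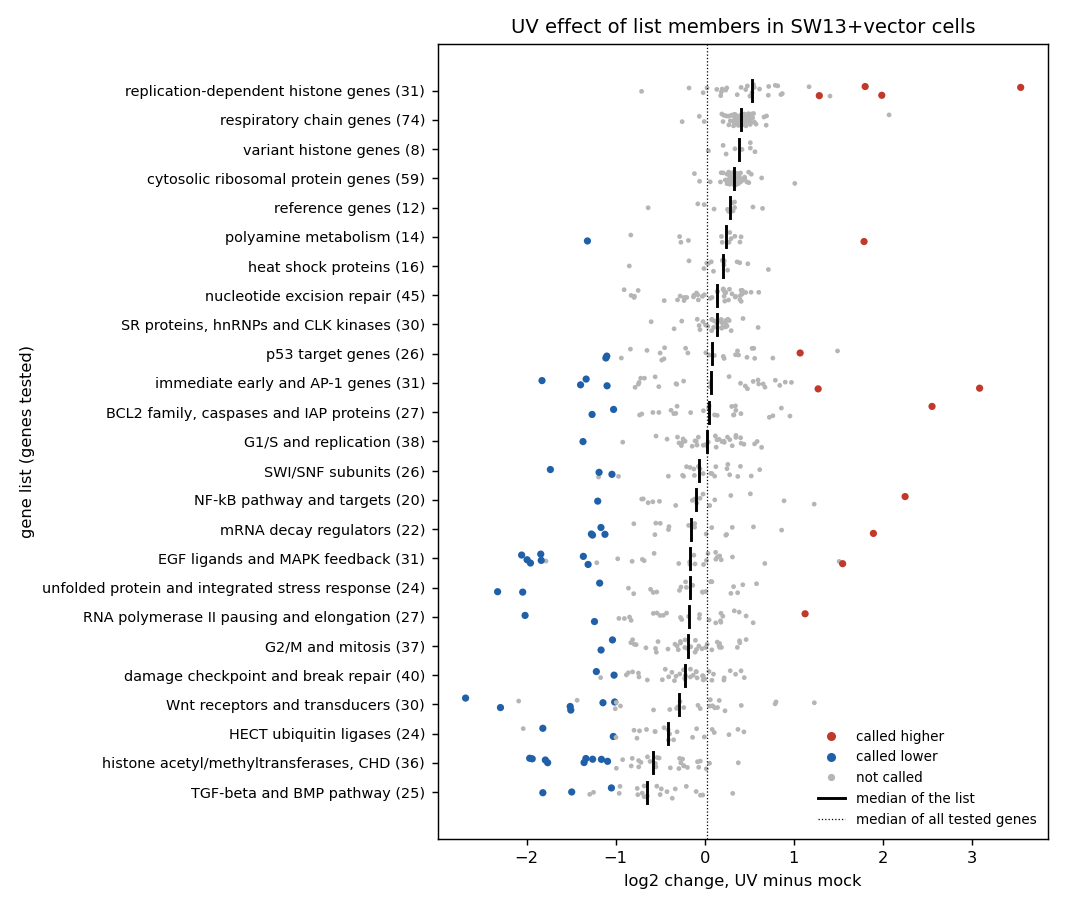
Log2 change after UV of each tested member of 25 gene lists in SW13+vector cells (horizontal axis), lists ordered by their median (black bars), with the number of genes tested. Red points were called higher, blue points lower and grey points neither, and the dotted line is the median of all tested genes, 0.03. The medians run from -0.65 for the TGF-beta and BMP pathway to 0.53 for replication-dependent histone genes.

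Among noncoding transcripts rises outnumbered falls. Of 1031 long noncoding RNA genes 2.23% were higher and 0.970% lower, and of 12496 protein-coding genes 0.544% were higher and 4.49% lower. Of 251 with a LINC name 7 were called higher (2.79%), near the 2.23% of all long noncoding RNA genes. LINC01003 had signals of 336, 291 and 243 without and 1131, 1068 and 832 with UV (log2 change 1.80, standard error 0.20, limma adjusted p = 0.00017). LINC00662 went from 75.3, 63.9 and 65.0 to 303, 312 and 302 on its brightest probe set, the single one called of 5. With the mean over its probe sets its change was -0.17, so the rise belongs to that probe set. LINC01128, the single member called lower, went from 315, 370 and 332 to 127, 204 and 154, a call lost without UV-treated array 1 (-0.93). LINC00973 and LINC00595 were called higher near background, with UV-treated means of 15.4 and 32.2, and the call of LINC00973 was lost without 3 of the 6 arrays in turn. LINC00973 passed the filter through the SW13+BRG1 arrays alone, with means there of 127 without and 181 with UV. Without mock-treated array 2 the LINC genes that rose numbered 4.

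Of the 13 genes over 100 kb that were called higher, none had a UV-treated mean above 67.1, so long genes rose near background. The largest change among the 13 was that of CPAMD8, a protease inhibitor of the alpha-2-macroglobulin family, from 2.06, 2.24 and 2.62 to 45.5, 27.5 and 29.2. The file gives no detection call, and a fold from such signals depends on how background was handled.

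Probe sets of the same gene did not always move together. Of 639 genes with 2 or more tested probe sets and at least 1 called lower, 470 had exactly 1 called and 41 had all. Probe sets of a gene can bind different parts or forms of its transcript. For the 577 lower genes, 883 further probe sets were tested, of which 86.2% had a change below 0, 20.2% were called lower and the median was -0.80. For the 93 higher genes, 67.4% of 43 further probe sets had a change above 0 and 14.0% were called. Most of the other probe sets thus had the direction of the called probe set, with a call in few of them. Of 79 named genes that were called, 30 lost the call when the probe sets of each gene were averaged. Besides those given above, these included XIAP (-0.63), MCL1 (-0.59), KIF23 (-0.63), CDK12 (-0.89), BCL7A (-0.77), REV3L (-0.76), CNOT4 (-1.12), PPM1D (-1.08) and MAT2A (-0.85).

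Most of the falls were also called in SW13+BRG1 cells, and most of the rises were not. Of the 577 genes lower without BRG1, 373 (64.6%) were also called lower with it, where 6.55% of all tested genes were, and 567 had the same sign, with a median change of -1.24. Of the 93 higher genes, 24 (25.8%) were called higher with BRG1, against 0.629% of all, and 76 had the same sign, with a median of 0.61. A call in a single line is not a difference between lines. The interaction, the UV effect without BRG1 minus that with BRG1, passed for 3 of the lower and 0 of the higher genes in limma, with 112 and 39 at an unadjusted p under 0.05, and for 0.101% of all tested genes. With the experiment number as a block it passed for 91 in place of 14 genes overall.

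The 3 were LIN28B, SPRY2 and MAT2A. LIN28B, an inhibitor of let-7 microRNA processing, went from 1479, 1398 and 1238 to 559, 531 and 477 without BRG1, a fall of 1.39, and fell by 3.14 with it (interaction 1.74, limma adjusted p = 0.0078). This difference passed without any 1 of the 6 arrays. SPRY2 fell by 1.99 without BRG1 and changed by -0.64 with it, not called. The lines started from unlike levels of SPRY2, with a mock-treated mean of 3970 without BRG1 and 121 with it. With BRG1 the UV-treated mean was 77.6. The SPRY2 interaction of -1.36 (limma adjusted p = 0.0121) did not pass without mock-treated array 1 (0.0709) or 2 (0.0580) or UV-treated array 2 (0.0598). MAT2A fell by 1.32 without and by 3.01 with BRG1, there from a mean of 2637 to 330 (interaction 1.69, limma adjusted p = 0.0464). In SW13+vector cells mock-treated array 3 gave MAT2A a signal well above the other 2, and the interaction passed without that array (0.00175) and did not without any of the other 5 (0.104 to 0.157). Of the 3, SPRY2 fell further without BRG1 and the other 2 with it. For HEXIM1, with a change of 1.13 without and 0.21 with BRG1, and H2AC17, with 1.99 and -0.08, the interaction did not pass (limma adjusted p = 0.0847 and 0.202), though it passed with the experiment number as a block (0.00352 and 0.0231). H2AC17 also started from unlike levels, with a mock-treated mean of 42.4 without BRG1 and 141 with it.

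**Figure D5:**
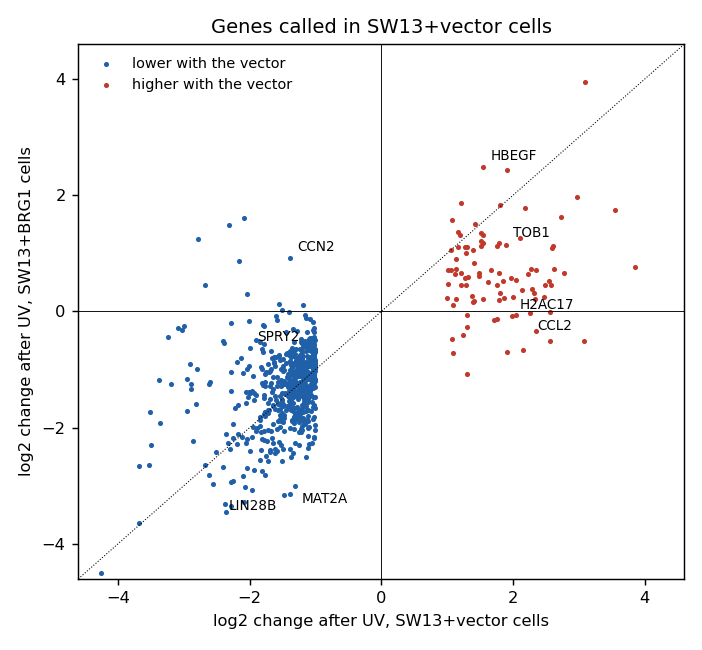
Log2 change after UV in SW13+BRG1 cells (vertical axis) against that in SW13+vector cells (horizontal axis) for the genes called lower (blue) or higher (red) in SW13+vector cells, genes of the Y chromosome and XIST left out. The dotted line marks equal changes, and 567 of 577 lower and 76 of 93 higher genes had the same sign in both lines.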

How the data were processed

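The authors hybridized total RNA to Affymetrix U133 Plus 2.0 arrays and deposited 1 linear signal intensity per probe set and array, summarized with MAS under default settings and scaled to a target of 125. The version of MAS was not given in the sources used here. Intensities of 54675 probe sets, as deposited, were converted to log2 and not normalized again. Probe sets at or above the array median (50th percentile) on at least 3 of the 12 arrays were kept, 32622 in all. A fit with limma 3.58.1 in R 4.3.3 used 1 mean per group over all 12 arrays, a variance prior with trend and Benjamini-Hochberg adjustment. Genes were called at a change over 2-fold with an adjusted p below 0.05, and interactions by that p alone. Each of 13834 genes was read from its brightest probe set that matches 1 gene. Of the 54675 probe sets, 41097 were paired with 1 gene, 1801 with several and 11777 with none. Gene spans and promoters are from RefSeq, GRCh38.p14. The fit was tested on simulated data.

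The genes named are the 12 with the largest change in each direction among called genes with separated groups and a group mean at or above 102, up to 4 called members of each list per direction, SMARCA4, SMARCA2, GAPDH and ACTB, and defining members of a list that were not called. Others are stated as named after their values were seen, or are shown as the remaining called members of a list. The members and lists were chosen with earlier results of these data known. In SW13+vector cells the deviations from the group means of same-numbered arrays had correlations of 0.108, 0.102 and 0.275 for numbers 1 to 3. The 6 pairs of different numbers had -0.188 to 0.109, so number 3 alone stood out, and the labels do not say what a number shares. The main fit therefore left the number out. A fit with the number as a block is given where it changes a call or moves a count by over 1.5 times. With 3 arrays per group and no detection calls, low signals limit the precision. Alternatives covered the scaling, the filter, the added constant, the variance prior, the arrays in the fit, the methods' test, the choice of probe set and each array left out.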

Additional observations from a re-analysis of the deposited data

Results flagged for a closer look

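The UV effect differed between the lines, by the limma interaction (UV effect without BRG1 minus UV effect with BRG1, adjusted p under 0.05), for 14 genes. Among the genes called lower without BRG1 it was -1.36 for SPRY2, 1.69 for MAT2A and 1.74 for LIN28B. Genes not called without BRG1 made up the others. It was -2.58 for ATF3, -1.97 for NFKBIZ and -1.32 for MAFF, which changed less without BRG1 or in the other direction. It was 0.83 for HMGA2, 1.14 for SPDL1, 1.16 for WTAP, 1.20 for COIL and 1.44 for FBXO5. It was 2.14 for IER3, 2.52 for JUN and 3.35 for PNRC1.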

How the results depend on the processing

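Probe sets higher and lower after UV numbered 217 and 1175, and genes 93 and 577. Without any 1 of the 6 arrays there were 135 to 274 and 852 to 1128 probe sets and 57 to 117 and 498 to 583 genes. With the replicate block the higher probe sets numbered 347 and the higher genes 145, and the interaction passed as positive for 72 genes in place of 10 and as negative for 19 in place of 4. The block lost no call of a named gene in the fit to all 12 arrays, and those of CASP8, TNFAIP3, CCL2 and LINC00973 in a fit to the 6 arrays alone (2.55, -1.20, 2.25 and 2.54, limma adjusted p = 0.465, 0.0681, 0.253 and 0.145). With only the 6 arrays of SW13+vector cells the higher were 121 probe sets and 49 genes, and with a filter at the 75th percentile 107 and 45. With 16 added to the signal 59 genes were higher. Scaled to the hybridization controls 119 probe sets and 45 genes were higher and 2264 and 1094 lower, and with quantile normalization, which gave 109 higher and 410 lower genes, the higher share of the calls was 21.0% in place of 13.9%. Without the fold threshold 1116 probe sets and 808 genes were higher and 1976 and 1203 lower. The methods' Welch test called 310 and 1308 probe sets at an unadjusted p under 0.05 and 1 and 5 after adjustment, and of genes 3 and 28 after adjustment. Without the arrays numbered 3, an alternative chosen after seeing the data, 81 genes were higher and 480 lower. The cause of these differences was not tested.

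Of 79 named genes that were called, 56 kept their call when each of the 6 arrays was left out. Over all alternatives for these genes, 1457 values kept direction and call, 268 kept direction alone, and 1 reversed. This was LINC00662, at -0.17 when its probe sets were averaged. Scaling to a common median or to the hybridization controls shifts all genes alike, so it cannot change the correlation with gene span. With quantile normalization, which can, the Pearson correlation was -0.271 in place of -0.287 and the Spearman correlation -0.310 in place of -0.330.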

Other observations

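Among the transcripts with a mock-treated mean over 1000, 32 genes were lower after UV, and most are not members of the lists described. RAPGEF2, an exchange factor for the small GTPase RAP1, had signals of 3693, 3747 and 2624 without and 857, 915 and 560 with UV, the largest fall of the 32 after TCF7L2 (log2 change -2.12, standard error 0.20, limma adjusted p = 5.8e-05). ADGRL2, an adhesion receptor that spans 688 kb, fell from 1810, 1715 and 1545 to 756, 752 and 659. WAC, an adaptor of histone H2B ubiquitination, fell by 1.55, NUP153, a nucleoporin of the nuclear basket, by 1.32, and GNAI1, an inhibitory G protein subunit, by 1.19. In each of these the groups were apart and the call held without any 1 of the 6 arrays. They were named after their values were seen.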
